A study of Mus musculus with 6 samples.

Results

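The 9 receptor genes described here are Cxcr3, Cxcr4, Cxcr5, Cxcr6, Ccr2, Ccr4, Ccr6, Ccr7 and Ccr8, taken by gene symbol from a deposited table of 47729 genes. Each symbol matched 1 row, and all 9 passed the filter on low values. RNA had been sequenced from 6 samples of splenic Tfh cells. Of these, 3 came from mice labelled Cbl-/-Cbl-b-/- (double knockout, named for loss of the ubiquitin ligases CBL and CBL-B) and 3 from mice labelled as wild-type controls. Both groups had been injected intraperitoneally with NP-OVA, a hapten coupled to ovalbumin, and both were sorted for CD4, TCR beta, high PD-1 and high CXCR5. The labels name no Cre driver, strain, age or sex, and do not say whether the samples came from different mice. The spread that p-values are set against is therefore that of the samples, which may be technical.

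Chemokine receptors are cell-surface receptors that steer lymphocytes along gradients of small secreted proteins, the chemokines. Most couple to inhibitory G proteins, and the G protein subunits released on ligand binding drive the PI3K gamma and RAC signals that move the cell. Tfh (follicular helper T) cells give help to B cells within germinal centres, and CXCR5, which binds CXCL13, is the receptor that brings them into B cell follicles. Other receptors of helper T cells are tied to other places: CCR7 to the T cell zone, CXCR4 to CXCL12-rich sites such as the dark zone of the germinal centre, CXCR3 to interferon-induced ligands in inflamed tissue.

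The libraries held 23392254 to 38368885 reads assigned to genes. Normalised counts of Cbl were 2221 to 3856 in the double knockout libraries, against 8614 to 12945 in the controls (log2 fold change -1.88, limma adjusted p = 0.00888). Those of Cblb were 7459 to 8054 in the double knockout libraries, against 6955 to 10037 in the controls, and did not pass. Which exons were targeted is not stated in the labels, so the Cblb count neither supports nor contradicts that label. The 7 Tfh markers (Cd4, Bcl6, Pdcd1, Icos, Il21, Sh2d1a, Tox2) summed to 144656 to 170106 in the double knockout, against 174953 to 187024 in the control. These sums did not overlap, 2 of the 7 genes had a positive log2 fold change, and none passed the test. Bcl6 was at 9353 to 13973 in the double knockout, against 8801 to 13335 in the control. Cd4 was at 64794 to 66382 in the double knockout, against 79244 to 82665 in the control, without overlap. Y-linked Ddx3y, Uty, Kdm5d and Eif2s3y had at most 7.16 in the double knockout, against at least 933 in the control. X-linked Xist had at least 12769 in the double knockout, against 53.3, 970 and 12.9 in control replicates 1 to 3. Control replicate 2 thus stood above the other controls in Xist, and why was not tested. Sex by these transcripts went with genotype, and the 2 cannot be told apart in any difference given here. Double knockout replicate 2 stood apart in Foxp3, the transcription factor that defines regulatory T cells, with 5451 against 149.6 to 768 in the other 5 libraries. Values are normalised read counts, meaning reads divided by 1 size factor per library. In sorted cells in bulk, fewer cells that express a gene and less RNA per cell cannot be told apart.

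Of the 9 receptors, Cxcr3 rose and Cxcr4 fell in double knockout Tfh cells, and the other 7 did not pass the test. Over all genes tested, 2.93% passed in either direction, 1.85% as higher and 1.07% as lower (398 of 13602 genes; limma on log2(count + 1), two-sided, adjusted p below 0.05). The receptors were picked with earlier results of these data known, so their share of calls is not read against that background. Their log2 fold changes, double knockout minus control throughout, ran from -0.89 for Cxcr4 to 2.75 for Ccr2. The median was 0.42 for the 9 receptors and -0.00114 for all genes tested. By count, 6 of the 9 were positive and 3 were negative.

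**Figure D1:**
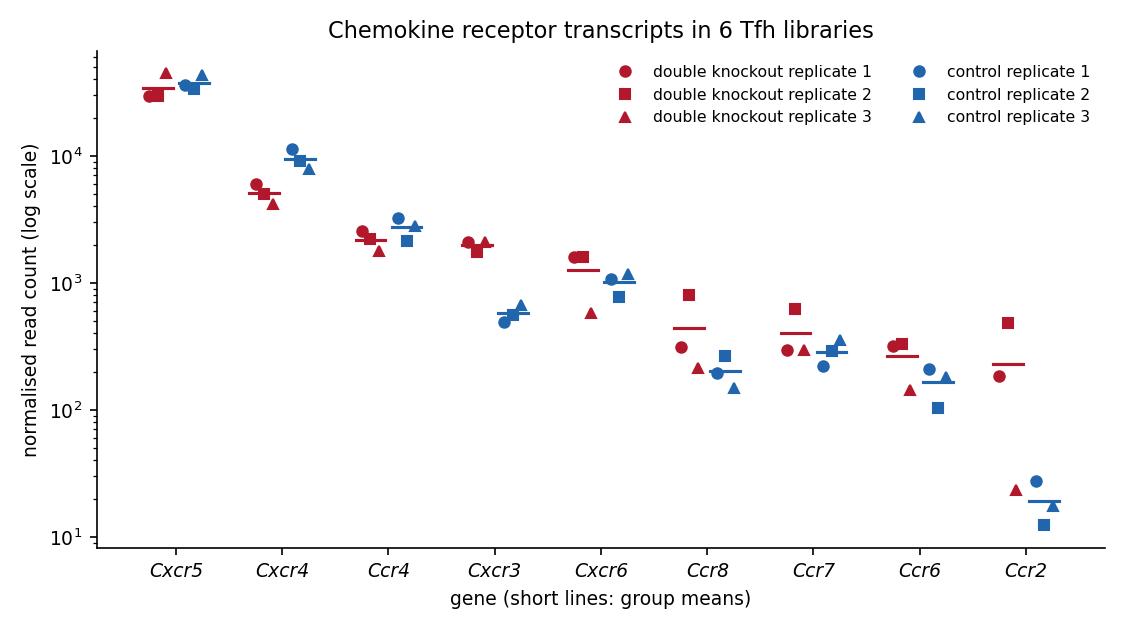
Normalised read counts (log scale) of the 9 receptor genes in each library, double knockout left (red) and control right (blue), with marker shapes for replicate numbers and short lines for group means. Cxcr3 (1762 to 2105 in the double knockout against 494 to 673 in the control) and Cxcr4 (4184 to 6040 in the double knockout against 7891 to 11277 in the control) are the receptors whose groups do not overlap. Of all genes tested, 23.6% had groups that do not overlap.

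Cxcr3 (ENSMUSG00000050232) encodes the receptor for CXCL9, CXCL10 and CXCL11 and is a marker of Th1-type cells. It lies on the minus strand of chromosome X, 101731535 to 101734269 (GRCm38, GENCODE M21), in 2 exon blocks. Double knockout replicates 1 to 3 had 2079, 1762 and 2105 normalised counts, against 494, 558 and 673 in control replicates 1 to 3. The groups were far apart, with no double knockout library near a control. Groups that did not overlap were found in 23.6% of all genes tested, in 12.3% with the double knockout higher. The mean was 1982 ± 191 in the double knockout, against 575 ± 90.7 in the control (SD, n = 3 each), a 3.46-fold higher level (95% interval of 2.74 to 4.36). The log2 fold change was 1.79 ± 0.15 (SE, limma adjusted p = 0.00249), and this was the 9th smallest p among 13602 genes. The call held with each library left out in turn (log2 fold change 1.69 to 1.91). Of 431 X-linked genes tested, Xist and Cxcr3 among them, 10 were higher and 1 was lower in the double knockout (2.55%), and their median log2 fold change was -0.0082.

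Cxcr4 (ENSMUSG00000045382) encodes the receptor for CXCL12, the chemokine of the germinal centre dark zone and of bone marrow. It lies on the minus strand of chromosome 1, 128588199 to 128592293, in 2 exon blocks. Cxcr4 stood at 6040, 4964 and 4184 in double knockout replicates 1 to 3, against 11277, 9025 and 7891 in the controls. The groups did not overlap, and the controls varied among themselves about as widely as the double knockouts (highest over lowest 1.44 in the double knockout, against 1.43 in the control). Of all genes tested, 11.3% had every double knockout library below every control. The mean was 5063 ± 932 in the double knockout, against 9398 ± 1723 in the control (SD, n = 3 each), so the double knockout stood at 0.539 of the control level (95% interval of 0.41 to 0.708). The log2 fold change was -0.89 ± 0.17 (SE, limma adjusted p = 0.0359). This call lay close to the threshold and held without control replicate 3 (adjusted p = 0.0463). It was lost without any one of the others: double knockout replicates 1 (0.067), 2 (0.0565) and 3 (0.0665) and control replicates 1 (0.129) and 2 (0.116), with log2 fold changes of -1.03 to -0.75 over these fits.

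**Figure D2:**
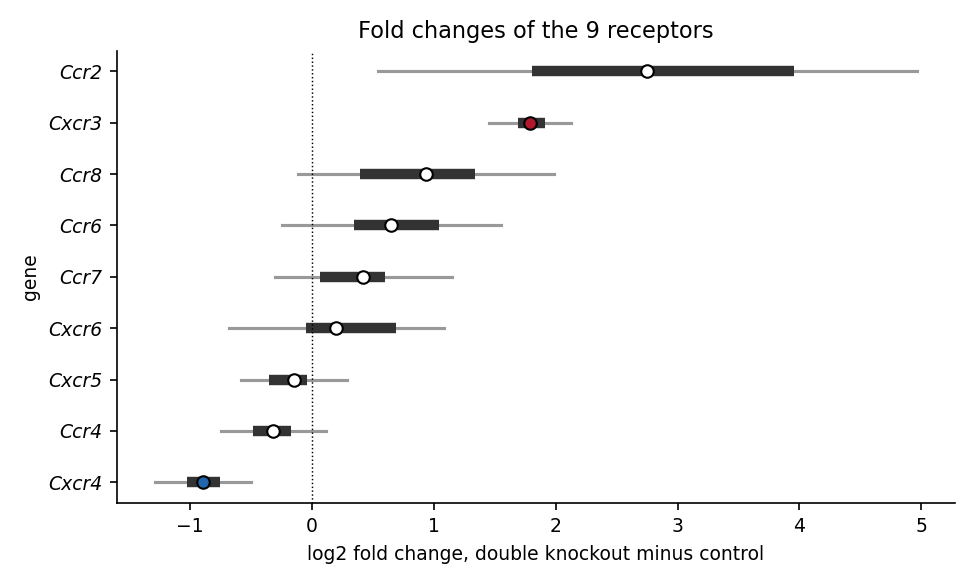
Log2 fold changes of the 9 receptors, double knockout minus control. Circles give the fit on all 6 libraries (red, passed as higher; blue, passed as lower; white, not passed), thin lines the 95% confidence interval and thick bars the range with each library left out in turn; only Cxcr6 has a bar that crosses 0, and the interval of Ccr2 is the widest, from 0.54 to 4.96.

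The start-site regions of these 2 genes are shown because they are the receptors that passed. Each run holds 250 bases before and 50 after the RefSeq start (GRCm38.p6, minus strand), written 5′ to 3′. Capitals mark every match on either strand to the letters of the E-box (CANNTG), the KLF core (CACCC), the T-box core (TCACACC), the TATA box (TATAAA) and the GC box (CCGCCC).
Cxcr3, chrX:101734098-101734397: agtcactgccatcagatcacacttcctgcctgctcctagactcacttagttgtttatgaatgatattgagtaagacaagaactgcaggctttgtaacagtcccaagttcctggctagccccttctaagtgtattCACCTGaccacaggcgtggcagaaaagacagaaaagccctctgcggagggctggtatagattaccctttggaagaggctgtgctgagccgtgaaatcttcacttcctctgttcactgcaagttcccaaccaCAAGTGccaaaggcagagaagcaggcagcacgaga
Cxcr4, chr1:128592250-128592549: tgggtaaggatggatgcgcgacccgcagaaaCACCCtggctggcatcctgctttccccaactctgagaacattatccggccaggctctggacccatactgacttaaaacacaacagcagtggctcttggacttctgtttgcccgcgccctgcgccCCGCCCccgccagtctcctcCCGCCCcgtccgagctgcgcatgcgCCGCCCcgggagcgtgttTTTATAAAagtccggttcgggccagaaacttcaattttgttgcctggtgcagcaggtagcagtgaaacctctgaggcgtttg

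The Cxcr3 window held 2 E-boxes and none of the other motifs. The Cxcr4 window held 3 GC boxes, 1 KLF core and a TATA box, which matched on both strands in overlapping letters, and no E-box. Of 32851 windows of the same length in the RefSeq table, 72.3% held an E-box, 57.5% a KLF core, 35.7% a GC box, 13.6% a TATA box and 3.98% a T-box core. These matches describe the letters only. Of the 9 receptors, 7 had an entry in that table.

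Cxcr5 (ENSMUSG00000047880), the follicle-homing receptor and the gate of the sort, lies on chromosome 9, 44511787 to 44561877, at 0.278 Mb from Cbl. It had 29482, 29321 and 44577 normalised counts in double knockout replicates 1 to 3, against 36265, 33345 and 43432 in the controls. The groups overlapped fully, with replicate 3 highest in each. The log2 fold change was -0.15 ± 0.19 (95% interval of -0.59 to 0.29, limma adjusted p = 0.771), which allows a double knockout level between 0.666 and 1.22 of the control. Because cells were gated on high CXCR5 protein, this level is that of cells already chosen for it. Among 73 genes tested within 5 Mb of Cbl, Cbl and Cxcr5 among them, 8 were higher and 3 lower in the double knockout (15.1%). On the opposite strand Bcl9l shares 110 exon bases with Cxcr5. Whether reads were counted by strand is not stated in the labels, so reads there cannot be assigned to either gene.

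The change of Cxcr3 relative to Cxcr5 could be read within each library, where the size factor cancels. The log2 ratio of Cxcr3 to Cxcr5 was -3.82, -4.06 and -4.40 in the double knockout libraries, against -6.19, -5.90 and -6.01 in the controls. The groups did not overlap, and the difference was 1.94 (exact two-sided permutation test, p = 0.1, the smallest that 3 against 3 allows; 7 ratios tested beside this one, none of them smaller). The log2 ratio of Cxcr4 to Cxcr5 was -2.29, -2.56 and -3.41 in the double knockout libraries, against -1.69, -1.88 and -2.46 in the controls, so that control replicate 3 lay among the double knockout libraries (difference -0.74, exact permutation p = 0.2). For the other 6 receptors the groups overlapped and the exact permutation p lay between 0.2 and 0.8.

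Levels of different genes were compared per kilobase of the gene's merged exons. In controls the order of mean counts per kilobase was Cxcr5 (11309 ± 1558), Cxcr4 (5198 ± 953), Ccr4 (884 ± 182), Cxcr6 (521 ± 108), Cxcr3 (332 ± 52.4), Ccr8 (173 ± 49.6), Ccr7 (145 ± 33.5), Ccr6 (71.1 ± 24.1) and Ccr2 (2.83 ± 1.16; SD, n = 3 each). Of neighbours in that order, only Ccr8 and Ccr7 had overlapping ranges. In double knockouts Cxcr3 came in position 3, with 1145 ± 111 counts per kilobase, behind Cxcr5 (10342 ± 2630) and Cxcr4 (2800 ± 515) and above Ccr4 (707 ± 130). The ranges of these 4 did not overlap. Below them came Cxcr6 (652 ± 307), Ccr8 (377 ± 268), Ccr7 (204 ± 93.6), Ccr6 (114 ± 45.4) and Ccr2 (33.9 ± 34.2). Ranges overlapped between Ccr4 and Cxcr6, Cxcr6 and Ccr8, Ccr8 and Ccr7, and Ccr6 and Ccr2.

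As a share of the summed count per kilobase of the 9 receptors, Cxcr5 took 56.6% to 73.6% in double knockout libraries and 56.1% to 66.2% in controls. Cxcr4 took 12.7% to 21.4% in double knockout libraries and 22.2% to 32.2% in controls. Cxcr3 took 6.64% to 7.69% in double knockout libraries and 1.47% to 1.97% in controls. Neither Cxcr4 nor Cxcr3 overlapped between the groups on this measure, while Cxcr5 did. By normalised count, groups did not overlap in 23.6% of all genes tested, and no such background was computed for this share.

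**Figure D3:**
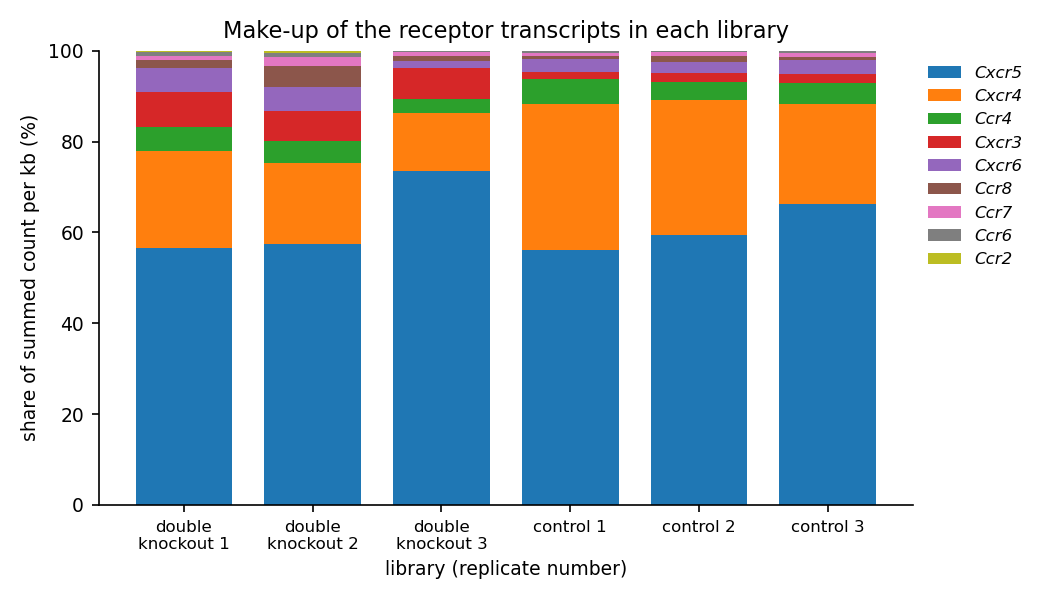
Share (percent) of each receptor in the summed normalised count per kilobase of the 9 genes, 1 bar per library, double knockout left and control right. Cxcr5 takes the most in every library, Cxcr3 takes 6.64% to 7.69% in the double knockout against at most 1.97% in the control, and Cxcr4 takes less in every double knockout library than in any control.

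The CC receptors and Cxcr6 did not pass. Ccr2 (ENSMUSG00000049103), the receptor for CCL2 that is best known from monocytes and is also made by effector T cells, had the largest fold change and the widest error. It lies on chromosome 9, 124101950 to 124113557. Ccr2 had 184, 479 and 23.3 normalised counts across the double knockout replicates, against 27.7, 12.3 and 17.4 in the controls, or 180, 585 and 26 reads in the double knockout, against 27, 9 and 19 in the controls. Replicates 1 and 2 of the double knockout were far above all controls, and replicate 3 was within the control range. The log2 fold change was 2.75 ± 0.96 (95% interval of 0.54 to 4.96, limma adjusted p = 0.189).

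The test of Ccr2 depended on the method and on 1 library. It passed with DESeq2 (log2 fold change 3.58, adjusted p = 0.017), where 8.06% of genes passed, and with library weights (2.88, limma adjusted p = 0.0368), where 10.1% passed. Without double knockout replicate 3 it passed as well (3.96, limma adjusted p = 0.0175, with 2.32% of genes passing), and its log2 fold change was 1.81 without replicate 2. It missed the threshold with edgeR (3.56, adjusted p = 0.0957), where 2.98% of genes passed. The authors' deposited table gives it a log2 fold change of 0.69 and an adjusted p of 0.0881, and there 6.61% of genes passed. Whether the authors' fold changes were shrunken (pulled toward no change) is not stated, so 0.69 may not be a like measure to 3.58.

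Ccr8 (ENSMUSG00000042262), the receptor for CCL1, lies on chromosome 9, 120092114 to 120094906, and is known from regulatory and Th2-type cells. Normalised counts of Ccr8 were 314, 802 and 214 in double knockout replicates 1 to 3, against 195, 265 and 149 in the controls. The groups overlapped, and double knockout replicate 2 was the highest. The log2 fold change was 0.93 ± 0.46 (95% interval of -0.12 to 1.99, limma adjusted p = 0.356), and 0.39 without that replicate.

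Ccr7 (ENSMUSG00000037944), the receptor for CCL19 and CCL21 that holds naive T cells in the T cell zone, lies on chromosome 11, 99144196 to 99155077. Ccr7 stood at 297, 617 and 295 in double knockout replicates 1 to 3, against 219, 291 and 352 in the controls. Without double knockout replicate 2, again the highest, the log2 fold change of 0.42 ± 0.32 (95% interval of -0.30 to 1.15, limma adjusted p = 0.57) came to 0.07.

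Ccr6 (ENSMUSG00000040899), the receptor for CCL20 and a marker of Th17-type cells and of many B cells, lies on chromosome 17, 8236043 to 8257141. Double knockout replicates 1 to 3 held 321, 332 and 144 normalised counts, against 211, 103 and 181 in the controls. Replicates 1 and 2 of the double knockout lay above all controls and replicate 3 among them (log2 fold change 0.65 ± 0.39 with a 95% confidence interval of -0.25 to 1.55, limma adjusted p = 0.456).

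Ccr4 (ENSMUSG00000047898), the receptor for CCL17 and CCL22 found on Th2-type and regulatory T cells, lies on chromosome 9, 114490316 to 114504916. The double knockout replicates had 2576, 2209 and 1774 normalised counts of it, against 3252, 2133 and 2818 in the controls. The groups overlapped (log2 fold change -0.32 ± 0.19 with a 95% confidence interval of -0.75 to 0.11, limma adjusted p = 0.448).

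Cxcr6 (ENSMUSG00000048521), the receptor for CXCL16 carried by tissue-homing effector T cells, lies on chromosome 9, 123806475 to 123811760. For Cxcr6 the double knockout replicates had 1592, 1610 and 575 normalised counts, against 1070, 773 and 1175 in the controls. Double knockout replicates 1 and 2 were the highest of all 6 libraries and replicate 3 the lowest. The log2 fold change was 0.20 ± 0.38 (95% interval of -0.68 to 1.08, limma adjusted p = 0.856), which allows 0.624 to 2.12 times the control level.

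**Figure D4:**
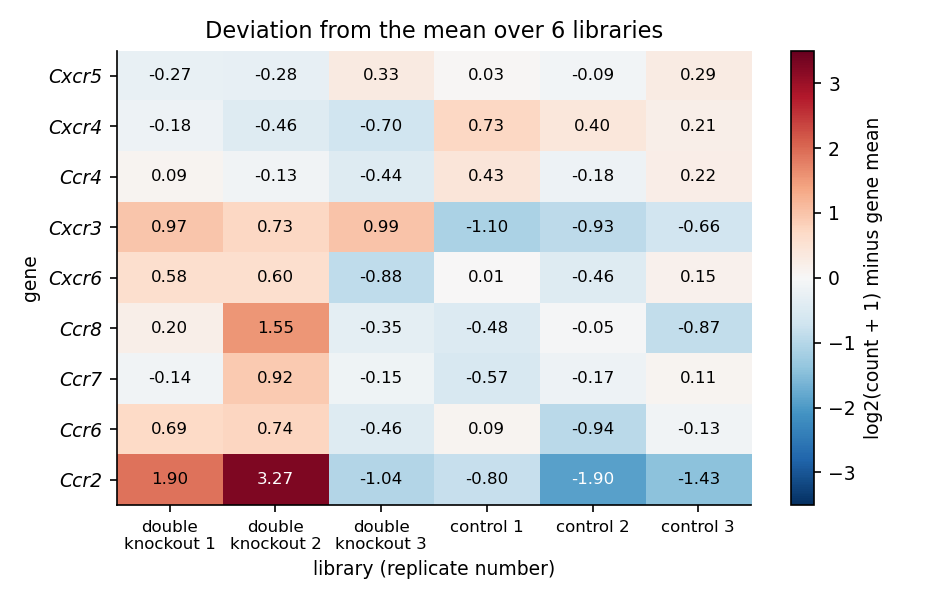
Log2(count + 1) of each receptor minus its own mean over the 6 libraries, 1 column per library, double knockout left and control right. Cxcr3 is positive in all 3 double knockout libraries and negative in all controls, Cxcr4 the reverse, while Cxcr6, Ccr6, Ccr8 and Ccr2 are positive in double knockout replicates 1 and 2 and negative in replicate 3.

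The receptors varied more within the double knockout than within the control in most cases. The highest double knockout library exceeded the lowest by 20.6 times for Ccr2, 3.75 times for Ccr8, 2.8 times for Cxcr6, 2.3 times for Ccr6 and 2.09 times for Ccr7. The matching values in the control were 2.24, 1.78, 1.52, 2.06 and 1.6 times. For Cxcr3 the spread was 1.2 times in the double knockout and 1.36 times in the control. Of the 9 receptors, the 5 of that first group had their highest double knockout value in replicate 2, the library with the high Foxp3 count. For Cxcr6 (1592 and 1610) and Ccr6 (321 and 332), however, double knockout replicates 1 and 2 were nearly equal. Their spread came from a low replicate 3 (575 for Cxcr6 and 144 for Ccr6). A link of any receptor to the Foxp3 count was not tested.

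Markers of other cells were read in the same libraries. The summed count of 5 regulatory T cell markers (Foxp3, Il2ra, Ikzf2, Ctla4, Lrrc32) was 14178 to 23286 in the double knockout, against 15650 to 22468 in the control, and 4 of the 5 had a positive log2 fold change, none of them past the threshold. Ikzf2, the largest part of that sum, was at 7951 to 12291 in the double knockout, against 12353 to 17427 in the control. Ctla4 was at 5510 to 9847 in the double knockout, against 2708 to 4618 in the control, and Lrrc32 at 33.1 to 378 in the double knockout, against 15.4 to 30.2 in the control, neither with overlap. Il2ra was at 243 to 832 in the double knockout, against 84.5 to 259 in the control. The 5 genes of naive or recirculating T cells summed to 9469 to 14972 in the double knockout against 19723 to 22657 in the control, with none past the threshold. Of these, S1pr1 was at 917 to 3381 in the double knockout against 4105 to 6525 in the control and Klf2 at 630 to 1944 in the double knockout against 2462 to 3366 in the control. Those of NK, NKT and gamma-delta T cells (5 genes) summed to 6383 to 13331 in the double knockout against 3054 to 3612 in the control. In that list Trdc passed as higher, with 5425 to 12060 in the double knockout against 815 to 999 in the control. Klrb1c passed as lower, while Ncr1 was at or below 8.19 in every library. The gamma-chain gene Tcrg-C1 was at 12.5 to 62.3 in the double knockout against 10.1 to 19.2 in the control, with overlap. Zbtb16 was at 51.0 to 207 in the double knockout against 5.51 to 28.8 in the control, without overlap. Neither Tcrg-C1 nor Zbtb16 passed. Of CD8 markers, Cd8a was at most 3.58 in the double knockout and 0 in every control, and Cd8b1 passed as lower. The 7 rows of myeloid markers summed to 325 to 605 in the double knockout against 211 to 318 in the control, with Cd68 at 173 to 546 in the double knockout against 88.2 to 117 in the control, and 1 of 2 Itgam rows was at 0 in every library. The monocyte genes Lyz2 and Csf1r were at most 47.5 in the double knockout, against at most 94.3 in the control. The 6 B cell markers summed to 1850 to 2562 in the double knockout against 1628 to 2803 in the control. The part of these cells in the receptor counts was not tested.

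**Figure D5:**
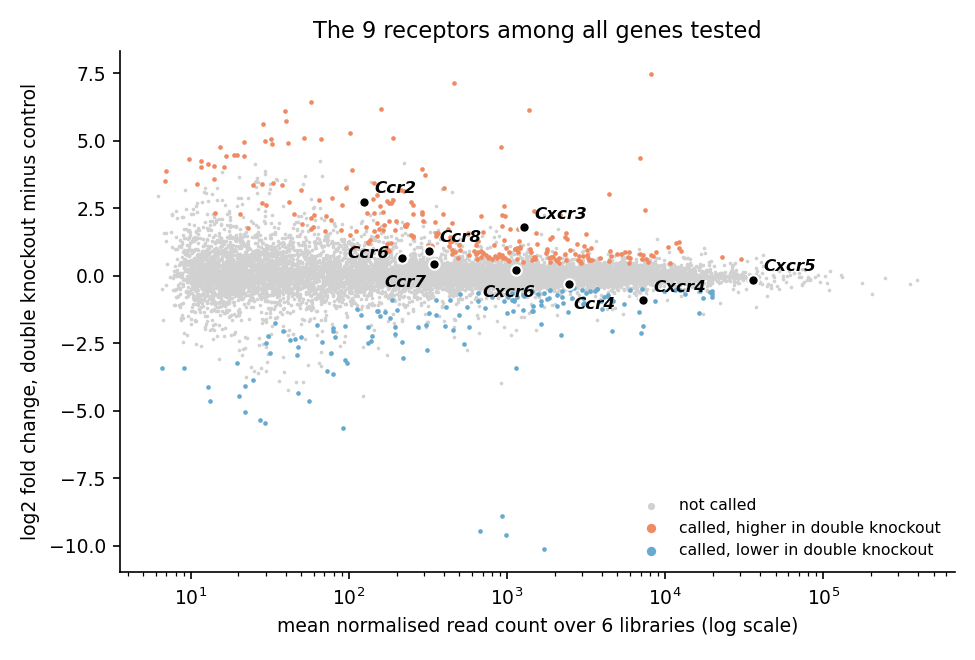
Log2 fold change (double knockout minus control) against mean normalised read count over 6 libraries (log scale) for the 13602 genes tested, coloured where they passed, with the 9 receptors in black. Cxcr3 lies among the genes that passed as higher and Cxcr4 among those that passed as lower, while Ccr2 (2.75) lies as high as genes that passed but did not pass itself.

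Other genes of the chemokine system mostly did not pass. Of 14 further chemokine receptor genes, 4 had enough reads to be tested and none passed in limma, while the other 10 had at most 12.3 in any library. Of 17 rows for ligands of the 9 receptors, 9 had no reads in any library and 2 were tested. Cxcl10, the CXCR3 ligand, fell, with 94.3, 152 and 113 in the double knockout against 283, 315 and 254 in the control (log2 fold change -1.26 ± 0.23, limma adjusted p = 0.0304). The groups did not overlap, and only 1 of the 6 leave-one-out fits kept the call. Ccl1, the ligand of CCR8, had 91.2, 117 and 22.4 in the double knockout against 24.6, 5.48 and 23.9 in the control and did not pass (limma adjusted p = 0.23).

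Downstream of the receptors, none of 7 tested G protein genes passed (median log2 fold change -0.14, 1 positive and 6 negative). The smallest p belonged to Gnaq, with 1871, 1686 and 2209 in the double knockout against 1432, 1361 and 716 in the control, and to Gnai3, with 9439, 8216 and 8266 in the double knockout against 10513, 10595 and 9719 in the control. None of 12 tested genes that damp receptor signals passed either (median -0.13). The smallest p there belonged to Rgs2, which speeds G protein shut-off, with 2237, 2657 and 1182 in the double knockout against 4218, 3801 and 4102 in the control, and to Grk6, a kinase that phosphorylates active receptors, with 8189, 8431 and 7452 in the double knockout against 10206, 9974 and 11054 in the control. All 3 double knockout values of either gene were below all controls, without passing (limma adjusted p = 0.0781 for Rgs2 and 0.0849 for Grk6), and both passed with DESeq2 (adjusted p = 0.00326 for Rgs2 and 0.0138 for Grk6). Of 16 effectors of migration, 1 fell and none rose (median -0.12). That gene was Pik3cg, the catalytic subunit of PI3K gamma, with 3125, 3140 and 3661 in the double knockout against 5838, 5345 and 4964 in the control (log2 fold change -0.70 ± 0.11, limma adjusted p = 0.0191). Its groups did not overlap, and 3 of the 6 leave-one-out fits kept the call.

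The genes most like each receptor over the 6 libraries were found by the root mean square difference of centred log2(count + 1) values, among 9416 protein-coding genes with a mean count of at least 100. For Cxcr3, whose own root mean square deviation was 0.91, they were Ston2 (difference 0.18) and Wdfy1 (0.19). For Cxcr4 (0.50) they were Tnfsf9 (0.09) and Appl2 (0.12). Wdfy1 averaged 1813 in the double knockout, against 550 in the control, and Appl2 averaged 346 in the double knockout, against 626 in the control. For Ccr2 they were Gzmb (0.65) and Mmp9 (0.73), farther from it than any of the other pairs from its receptor. For Cxcr5 they were Nme1 and Gpx1, for Cxcr6 Zrsr1 and Apobec1, for Ccr4 Atg10 and Smim14, for Ccr6 Fam124b and Znrf3, for Ccr7 Frmd6 and Uvrag, and for Ccr8 Pik3c2a and Smad7. With 6 libraries such likeness describes these samples only.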

How the data were processed

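Each deposited value is the authors' library-size-normalised signal for 1 gene in 1 library, per the file headers. According to the submitters' processing notes the software was featureCounts 1.4.6, STAR 2.5.1b and DESeq2 1.12.3 with the GRCm38 build, and no role is given for any of them. Nothing states the annotation release, the strand setting or how multi-mapping reads were treated. The same deposited table holds the authors' mean signal, log2 fold changes, a test statistic (score) and p-values, used only as an alternative. All values were whole multiples of the smallest value above 0 in their column (100% within 0.001 of a read), so reads were recovered. Libraries of 1 group differed by more than counting noise (chi-square over degrees of freedom 10.0 to 84.3).

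Genes with a value of at least 10 in at least 3 libraries were tested (13602) on log2(value + 1), where the added 1 understates changes of low genes. Limma-trend (limma 3.58.1, R 4.3.3) gave the p-values, with Benjamini-Hochberg adjustment over all genes tested and a threshold of 0.05. The test was checked on simulated counts. Single values used exact permutation tests (Python 3.11.15, scipy 1.17.1). Alternatives were edgeR 4.0.16 (405 genes passed) and DESeq2 1.42.0 (1096 genes passed) on the recovered reads, the authors' comparison, other pseudocounts, filters and scalings, weights per library, a block for the replicate number, and each library left out. Coordinates and exon lengths come from GENCODE M21 on GRCm38, and start-site sequences from RefSeq. The genes named were all 9 receptors, the genes past the threshold in each chemokine list (or the 2 with the smallest p), the 2 genes most like each receptor and the marker genes; Ccl1, the range values and the motifs were added after values were seen. Receptors and lists were chosen with earlier results of these data known. List entries Grk2 and Grk3 are the same genes as Adrbk1 and Adrbk2, and Ccl21a and Itgam had more than 1 row. Some genes of the lists are not reported here.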

Additional observations from a re-analysis of the deposited data

How the results depend on the processing

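Of 152 receptor fold changes under alternatives, 142 kept direction and side of the threshold. Cxcr3 passed in all 17 (log2 fold change 1.65 to 1.92). Cxcr4 passed in the 11 that kept all libraries (-0.91 to -0.81) and in 1 of 6 without a library (-1.03 to -0.75). The 1.65 and the -0.81 come from the authors' deposited table, where shrinkage of fold changes is not stated. The receptors past the threshold numbered 2 to 3 with all libraries and 1 to 2 without 1. Cxcr6 turned negative without double knockout replicate 1 (-0.041) or 2 (-0.049), ranging from -0.049 to 0.69 without 1 library. Its log2 ratio to Cxcr5 ranged from -0.0023 (without double knockout replicate 2) to 1.04, and that of Ccr4 from -0.39 to 0.17 (without double knockout replicate 3). The count of all genes was 1096 with DESeq2 (663 higher, 433 lower), 993 in the authors' deposited table (615 and 378), 1368 with library weights (769 and 599) and 265 with the replicate block (170 and 95). Without 1 library it ran from 58 to 498 (33 to 254 higher, 13 to 244 lower). Same-numbered libraries correlated weakly in their deviations (0.05 to 0.09), each best with its own number. The labels name no pairing, so the main fit left the numbers out, and whether they pair samples is not known. The replicate block changed no receptor's call. A filter at 50 left Ccr2 untested. The causes were not tested. At 9 to 27 reads in controls, Ccr2 has the largest counting error of the receptors.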

Other observations

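These genes were picked out after their values were seen. Cxcl9 had 5.12, 10.7 and 6.26 in the double knockout libraries, against 1.03, 0 and 0 in the controls, too few to be tested. Cxcl13, the CXCR5 ligand, had 5.12, 6.56 and 0.895 in the double knockout libraries, against 22.6, 2.74 and 14.7 in the controls. Of the RAP1 pathway, Rasgrp2, which activates RAP1 for integrin adhesion, had 332, 534 and 149 in the double knockout libraries, against 562, 633 and 647 in the controls (log2 fold change -1.04, limma adjusted p = 0.238), every double knockout library below every control.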
